A study of Mus musculus with 12 samples.

Results

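The transcripts described here are those of 9 membrane transporters that carry bile salts, phospholipid and organic anions through liver cells. They were chosen by name: a row of the gene table was taken when its symbol was one of the 9, and all 9 were found among 45777 genes. 6 of them take up solutes from blood at the sinusoidal membrane (*Slc10a1*, *Slco1b2*, *Slco1a1*, *Slco1a4*, *Slco2b1* and *Slc22a7*), *Slc51b* belongs to a basolateral exporter, and *Abcb11* and *Abcb4* export into the bile canaliculus. RNA of whole liver was sequenced from 12 male C57BL/6 mice aged 10 to 12 weeks by the labels, 3 in each of 4 groups: wild type (WT) with vehicle, WT with acetaminophen, Gα12KO (Gα12-/-) with vehicle and Gα12KO with acetaminophen. Acetaminophen (APAP), a painkiller that injures the liver in overdose, was given to fasted mice as one intraperitoneal injection of 300 mg/kg, and livers were taken after 6 h. *Gna12*, the gene of the G protein subunit Gα12, is the one deleted in the knockout line, and by the study's methods the WT mice were littermates. The question asked of the transporters was how their transcripts differed between APAP and vehicle livers, and between the genotype labels.

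Hepatocytes recover bile salts from portal blood by sodium-dependent uptake through NTCP and by sodium-independent uptake through organic anion transporting polypeptides (OATPs), and secrete them into bile through the ATP-driven bile salt export pump. The same OATPs clear bilirubin, steroid conjugates and many drugs. Canalicular export keeps the concentration of bile salts inside the hepatocyte low, and the basolateral exporters offer a second way out when bile flow fails.

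*Slco1b2*, *Slco1a4* and *Slco1a1*, 3 OATP genes, lie within 317.511 kb of each other on chromosome 6 (chr6:141629452-141946962, GRCm38.p6), with *Slco1b2* on the plus strand and the other 2 on the minus strand. The remaining members lie on chromosomes 12 (*Slc10a1*), 7 (*Slco2b1*), 17 (*Slc22a7*), 9 (*Slc51b*), 2 (*Abcb11*) and 5 (*Abcb4*). Promoter sequence before the gene is printed for 4 uptake genes that were lower after APAP in the pooled test described further on, and for *Abcb11*, which did not pass that test. The sequences are those of RefSeq on GRCm38.p6, 5′ to 3′ on the strand of the gene, and capitals mark matches to the motifs named after them. Each printed stretch comes from the 250 bases before the start in RefSeq's promoter windows. The windows of *Slco1b2* and *Slco1a4* use a start that lies inside the gene as the RefSeq gene table bounds it, so their last 66 and 64 of these bases, which fall inside the gene, are not printed.
*Slc10a1*, chr12:80968706-80968955, minus strand: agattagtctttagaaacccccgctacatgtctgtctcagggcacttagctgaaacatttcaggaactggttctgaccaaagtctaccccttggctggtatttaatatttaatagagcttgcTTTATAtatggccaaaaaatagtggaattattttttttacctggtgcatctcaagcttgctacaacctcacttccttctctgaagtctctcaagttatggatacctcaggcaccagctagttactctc
*Slco1b2*, chr6:141629268-141629451, plus strand: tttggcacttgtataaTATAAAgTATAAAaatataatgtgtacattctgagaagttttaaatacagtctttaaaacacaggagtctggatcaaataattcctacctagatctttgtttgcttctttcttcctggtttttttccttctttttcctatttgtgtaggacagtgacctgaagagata
*Slco1a4*, chr6:141856285-141856470, minus strand: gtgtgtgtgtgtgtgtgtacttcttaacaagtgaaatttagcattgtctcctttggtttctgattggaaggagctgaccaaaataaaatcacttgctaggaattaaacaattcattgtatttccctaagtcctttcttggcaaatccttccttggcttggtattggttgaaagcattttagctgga
*Slco1a1*, chr6:141946963-141947212, minus strand: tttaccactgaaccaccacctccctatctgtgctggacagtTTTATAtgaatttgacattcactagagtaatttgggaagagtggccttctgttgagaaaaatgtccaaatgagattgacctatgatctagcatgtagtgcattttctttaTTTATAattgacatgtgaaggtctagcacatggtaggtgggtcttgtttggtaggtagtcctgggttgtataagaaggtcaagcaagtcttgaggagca
*Abcb11*, chr2:69342617-69342866, minus strand: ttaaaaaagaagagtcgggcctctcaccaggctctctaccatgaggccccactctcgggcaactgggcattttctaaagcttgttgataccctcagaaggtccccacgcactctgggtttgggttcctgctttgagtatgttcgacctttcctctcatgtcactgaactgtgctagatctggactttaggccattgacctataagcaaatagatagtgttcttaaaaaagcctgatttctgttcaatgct

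Each of 7 short motifs was searched on both strands in windows of 250 bases before to 50 after the start they use, and 11 such windows matched 8 of the 9 members. *Slco1b2* held the only HNF1 match (GTTAATNAT), which began 66 bases before the start its window uses, at the first base of the gene in the gene table and thus outside the printed stretch, and 0.801% of all 32851 windows hold this motif. The TATA motif (TATAAA) was present in a window of *Slco1b2*, *Slco1a1* and *Slc10a1* and in 13.6% of all windows. AP-1 (TGANTCA) was matched in a window of *Slco2b1* and of *Slc51b*, against 7.81% of all windows. No member window held the letters searched for the FXR inverted repeat (GGTCANTGA, 0.840% of all windows), HNF4 (CAAAGTCCA, 0.475%), the antioxidant response element (TGACNNNGC, 12.4%) or the E-box (CACGTG, 7.15%). A match describes letters in the window and is not evidence of binding. Only exact letters were searched, so near matches to a motif were not counted.

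The libraries held between 49737950 and 69566079 counted reads. *Gna12* was not lower under the knockout label: it ranged from 34.8 to 66.7 CPM (read counts scaled to a common library size, after TMM scaling) in WT vehicle, 54.6 to 67.2 in Gα12KO vehicle, 23.7 to 58.1 in WT APAP and 43.5 to 48.3 in Gα12KO APAP livers. The genotype groups are therefore named by their labels. The library of WT APAP liver 1 stood apart in an erythroid list, with a summed level of 17367 CPM against 253 to 749 CPM in the other 11, and also had the highest neutrophil sum, 131 CPM. A hepatocyte list, of which 11 of 12 genes were in the table and all 11 were detected, summed to 86520 to 127199 CPM in vehicle and 102751 to 172099 CPM in APAP livers.

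Levels can be compared between genes only per transcript length, as TPM, the deposited values scaled by transcript length and library. In the 6 vehicle livers *Slc10a1*, which encodes NTCP, had the highest mean level of the 9, 603 ± 123 TPM (SD, n = 6), and *Slco1b2*, which encodes OATP1B2, the next, 379 ± 106 TPM. *Abcb4* (118 ± 35.2 TPM) and *Slco1a1* (116 ± 22.1 TPM) followed, and their ranges overlapped. *Abcb11*, the gene of the bile salt export pump, lay at 64.2 ± 17.9 TPM and *Slco2b1* at 59.6 ± 14.6 TPM. *Slco1a4* had 36.4 ± 5.96 TPM and *Slc22a7* 12.2 ± 7.74 TPM. The order was the same by the mean over all 12 livers. Neighbours in it overlapped in their ranges, with 3 exceptions: *Slco1b2* over *Abcb4*, *Slco1a4* over *Slc22a7*, and *Slc22a7* over *Slc51b*, which reached at most 0.280 TPM in vehicle livers.

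**Figure D1:**
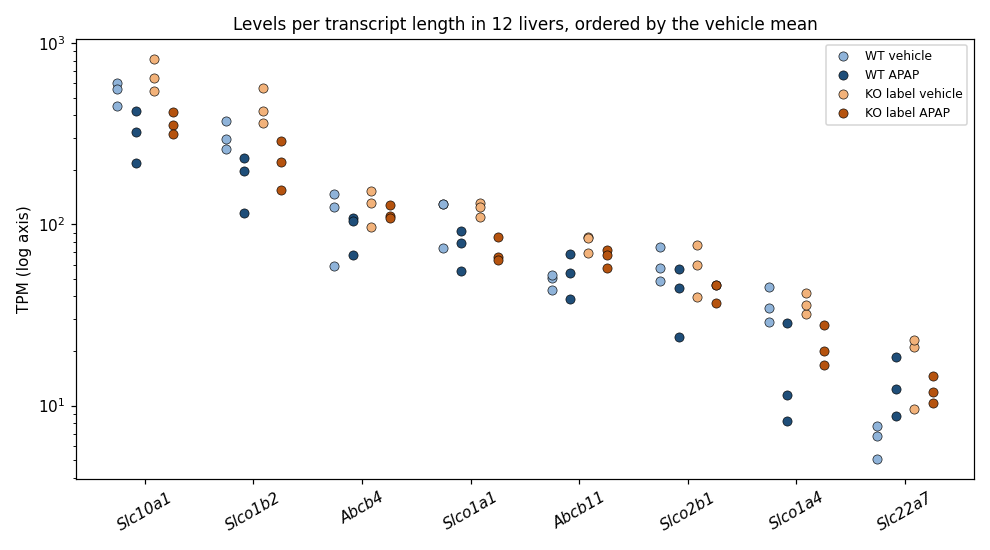
TPM (log axis) of 8 transporters in each of the 12 livers, ordered by the mean of the 6 vehicle livers; each point is 1 liver and the colours mark the 4 groups. *Slc10a1* and *Slco1b2* lie above the other genes in the vehicle livers, and *Slc51b*, listed at 0 in 6 libraries, is left out.

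After APAP, the transcripts of 5 uptake carriers were lower when all 12 livers were tested together with the genotype label as a covariate: *Slco1a4* by 52.8%, *Slco1b2* by 48.9%, *Slc10a1* by 45.5%, *Slco1a1* by 39.9% and *Slco2b1* by 31.4%. The canalicular genes *Abcb11* and *Abcb4* and the uptake gene *Slc22a7* did not pass that test. These 5 are 5 of the 8 members tested (*Slc51b* was too low to test), whereas 11.7% of the 16112 genes tested were called lower and 14.0% higher. A gene was called when its p-value from edgeR's quasi-likelihood test, adjusted over all genes tested by the Benjamini-Hochberg method, was under 0.05. In bulk liver, fewer cells of a type and less RNA per cell cannot be told apart.

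*Slc10a1* encodes NTCP, the main sodium-dependent carrier for conjugated bile salts. It stood at 603, 538 and 637 CPM in the WT vehicle livers and at 381, 391 and 344 CPM in the WT APAP livers. In Gα12KO livers it stood at 723, 667 and 710 CPM with vehicle and at 308, 396 and 289 CPM with APAP. Every APAP liver was below every vehicle liver, and the highest APAP value, 396 CPM, was well under the lowest vehicle value, 538 CPM. The log2 fold change over all 12 livers was -0.88 ± 0.12 (SE, adjusted p = 0.000315), with a 95% interval of -1.14 to -0.61. It was -1.07 ± 0.16 under the Gα12KO label (adjusted p = 0.00358) and -0.66 ± 0.19 in WT, where it did not pass (adjusted p = 0.124).

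*Slco1b2* encodes OATP1B2, a hepatocyte carrier for unconjugated bile salts and bilirubin. Its levels were 707, 587 and 639 CPM in WT vehicle and 381, 405 and 394 CPM in WT APAP livers. With the Gα12KO label they were 944, 715 and 1035 CPM after vehicle and 367, 518 and 267 CPM after APAP. The APAP livers again all lay below the vehicle livers, the WT APAP livers within a narrow range and the Gα12KO APAP livers over a wider one. The pooled log2 fold change was -0.97 ± 0.17 (adjusted p = 0.00145). Under the Gα12KO label it was -1.22 ± 0.26 (adjusted p = 0.0130), the largest drop among the members in that comparison, and in WT it was -0.70 ± 0.19 without passing (adjusted p = 0.106).

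*Slco1a4* encodes OATP1A4, a carrier of bile salts, steroids and digoxin. It was measured at 98.0, 88.9 and 72.0 CPM in WT vehicle and at 31.3, 57.7 and 25.9 CPM in WT APAP livers. The Gα12KO livers had 61.8, 93.9 and 101 CPM with vehicle and 37.9, 57.4 and 33.2 CPM with APAP. Groups did not overlap in either genotype, and liver 2 was the highest of the APAP livers in both. Its pooled log2 fold change, -1.08 ± 0.21 (adjusted p = 0.00264), was the largest drop among the 8 members tested. The change was -0.99 ± 0.25 under the Gα12KO label (adjusted p = 0.0249), a call that was lost in 4 of the 6 fits that left out 1 library each (adjusted p 0.0115 to 0.0858). In WT it was -1.16 ± 0.31 and did not pass (adjusted p = 0.107), whereas without WT APAP liver 2 it passed at an adjusted p of 0.0267.

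*Slco1a1* encodes OATP1A1, which carries sulfated steroids and bile salts. WT vehicle livers held 297, 201 and 335 CPM and WT APAP livers 220, 196 and 189 CPM, so that WT vehicle liver 2 lay inside the range of the APAP livers. Gα12KO livers held 222, 311 and 370 CPM with vehicle and 172, 142 and 133 CPM with APAP, without overlap. The pooled log2 fold change was -0.74 ± 0.17 (adjusted p = 0.00739). Under the Gα12KO label it fell by 50.1% (95% interval of the change -63.8% to -31.2%, adjusted p = 0.0109), and the log2 fold change was -0.45 ± 0.23 in WT (adjusted p = 0.361).

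*Slco2b1* encodes OATP2B1, a carrier of steroid sulfates that is found in many tissues. The values were 182, 141 and 156 CPM in WT vehicle and 100, 130 and 115 CPM in WT APAP livers. Under the Gα12KO label they were 163, 151 and 125 CPM with vehicle and 99.6, 106 and 80.9 CPM with APAP. Within each genotype the groups did not overlap, but the highest WT APAP liver (130 CPM) exceeded the lowest Gα12KO vehicle liver (125 CPM). The pooled log2 fold change was -0.54 ± 0.12 (adjusted p = 0.00447), and the change under the Gα12KO label was -0.61 ± 0.15 (adjusted p = 0.0260). Leaving out 1 library ended the call under the Gα12KO label in 4 of 6 fits (adjusted p 0.0298 to 0.0888). In WT it was -0.46 ± 0.19 (adjusted p = 0.247). Exons of *Slco2b1* share 471 and 78 bases with the antisense genes *Gm15635* and *Gm34280*, and the strand setting of the counting is not given in the sources used here.

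*Slc22a7* encodes OAT2, an anion exchanger that carries nucleotides, glutamate and drugs. It stood at 5.92, 10.6 and 8.90 CPM in WT vehicle and at 24.9, 19.9 and 10.7 CPM in WT APAP livers. In Gα12KO livers the order was the other way round, with 21.5, 27.6 and 14.3 CPM after vehicle and 10.6, 15.9 and 12.5 CPM after APAP. The WT groups did not overlap, though WT vehicle liver 2 and WT APAP liver 3 almost met, and the Gα12KO groups overlapped. The log2 fold change was 1.14 ± 0.35 in WT (adjusted p = 0.145) and -0.69 ± 0.24 under the Gα12KO label (adjusted p = 0.0732), and neither passed edgeR's test. DESeq2's Wald test called both, with adjusted p-values of 0.0382 and 0.0314. WT APAP liver 1, the library with the high erythroid sum, had the highest WT value, and without it the WT change was 0.85 ± 0.35 (adjusted p = 0.264). Over all 12 livers the change was 0.21 ± 0.35 (adjusted p = 0.704).

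*Slc51b* encodes the β subunit of the basolateral exporter OST. It was listed at 0 counts in 6 of the 12 libraries and at 4 to 10 counts in the others, of which 10 counts came from WT APAP liver 1. A count of 0 allows up to 3 counts in a library, for counting error only, so no fold change is given. The gene of its partner subunit, *Slc51a*, was listed at 0 in all 12 libraries. *Slc51b* was removed by the filter on low counts in every comparison, and 91 of its exonic bases overlap *Rasl12* on the opposite strand.

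*Abcb11* encodes the bile salt export pump, the ATP-driven carrier of bile salts into the canaliculus. It stood at 143, 146 and 169 CPM in WT vehicle and at 190, 181 and 161 CPM in WT APAP livers. In Gα12KO livers it stood at 213, 246 and 254 CPM with vehicle and at 179, 182 and 149 CPM with APAP. The WT groups overlapped, the Gα12KO groups did not, and the 3 highest values of all 12 livers were those of the Gα12KO vehicle livers. The log2 fold change under the Gα12KO label was -0.47 ± 0.14 (adjusted p = 0.0424). This call was lost in all 6 fits that left out 1 library each (adjusted p 0.0568 to 0.140). The change was 0.23 ± 0.17 in WT (adjusted p = 0.536) and -0.13 ± 0.14 over all 12 livers (adjusted p = 0.531, 95% interval -0.43 to 0.17). Its exons share 136 bases with the antisense gene *Gm13613* and 19 with the pseudogene *Gm13614*, both on the opposite strand.

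*Abcb4* encodes MDR2, the canalicular floppase that delivers phosphatidylcholine to bile. WT vehicle livers held 287, 158 and 382 CPM and WT APAP livers 255, 225 and 249 CPM. Gα12KO livers held 314, 310 and 286 CPM with vehicle and 226, 272 and 227 CPM with APAP. WT vehicle livers spread more widely than any other group and enclosed the WT APAP livers, while the Gα12KO groups did not overlap. The log2 fold changes were -0.17 ± 0.31 in WT (adjusted p = 0.808), -0.32 ± 0.13 under the Gα12KO label (adjusted p = 0.117) and -0.26 ± 0.17 over all 12 livers (adjusted p = 0.308). Without WT vehicle liver 2 the last became -0.39 and passed (adjusted p = 0.0194).

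**Figure D2:**
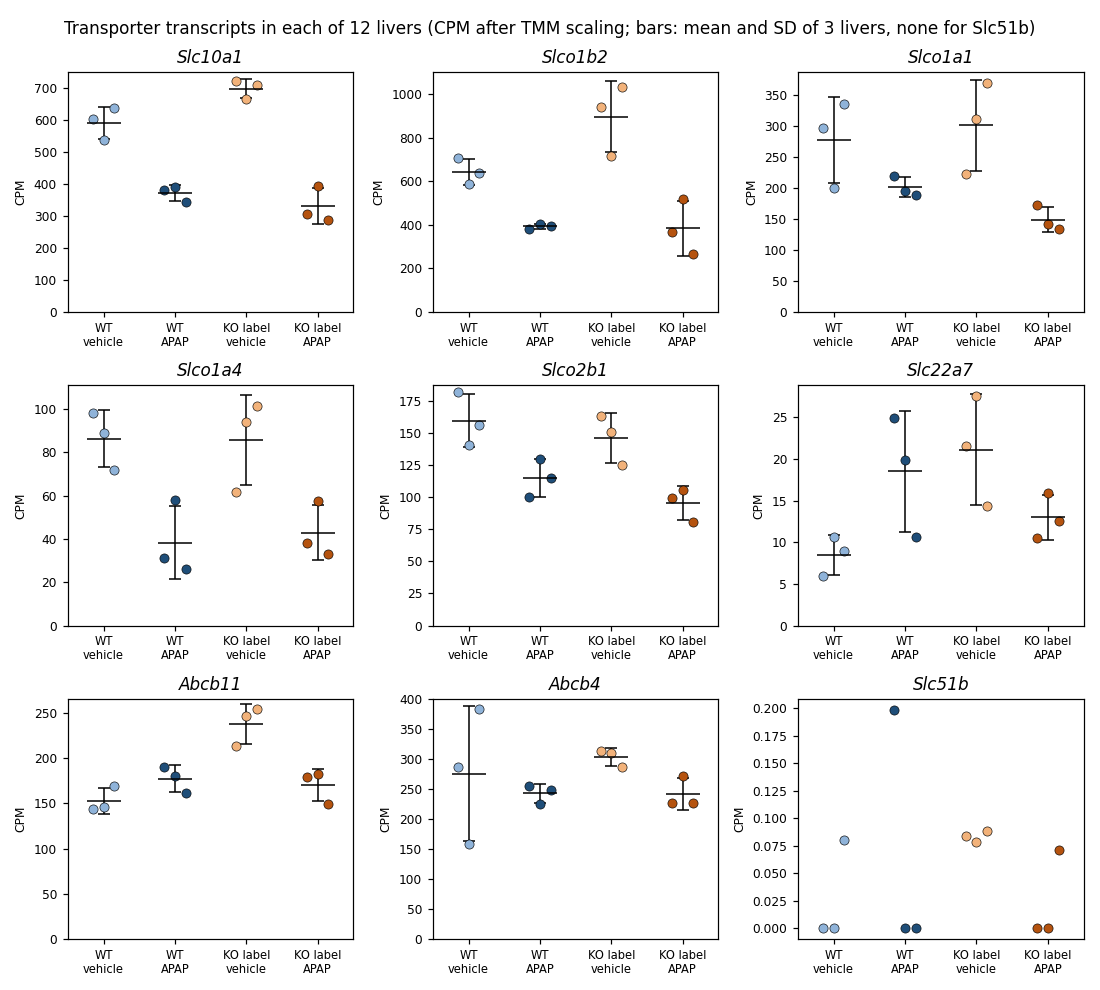
CPM of the 9 transporters in each of the 12 livers (1 point a liver), by genotype label and treatment. The linear axes start at 0 except for *Slc51b*, where the axis starts just under it. The horizontal marks and bars are the mean and SD of 3 livers, and are left out for *Slc51b*. *Slc10a1*, *Slco1b2* and *Slco1a4* show no overlap of vehicle and APAP livers, and the *Slc22a7* groups run in opposite directions under the 2 labels.

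Taken by genotype, 6 of the 8 members tested were called lower under the Gα12KO label (9.60% of 15665 genes tested were called lower there, and 13.0% higher), and 0 of 8 were called in WT, where 0.427% of 15693 genes were called lower and 1.62% higher. In WT 5 members had an unadjusted p under 0.05, as had 2817 of the 15693 genes. DESeq2's Wald test called 4 members (*Slc10a1*, *Slco1a4*, *Slco1b2* and *Slc22a7*) among 1413 genes called in all. A single fit of all 12 livers called 2 members among 1523 genes. The count under the Gα12KO label dropped to 3 without Gα12KO APAP liver 1 or 3 or without Gα12KO vehicle liver 2. Over all genes, the calls went from 3538 to 2655, 2071 and 1995, in that order. Vehicle and APAP livers did not overlap in 7 of the 8 tested members under the Gα12KO label (42.8% of all genes tested), in 5 in WT (24.9%) and in 3 when pooled (12.7%). The median log2 fold change of the 8 was -0.46 in WT, -0.84 under the Gα12KO label and -0.64 pooled, beside 0.03, -0.02 and 0.01 over all genes tested. All 5 pooled calls held in each of the 12 fits that left out 1 library and in the fit without both WT APAP liver 1 and WT vehicle liver 2.

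**Figure D3:**
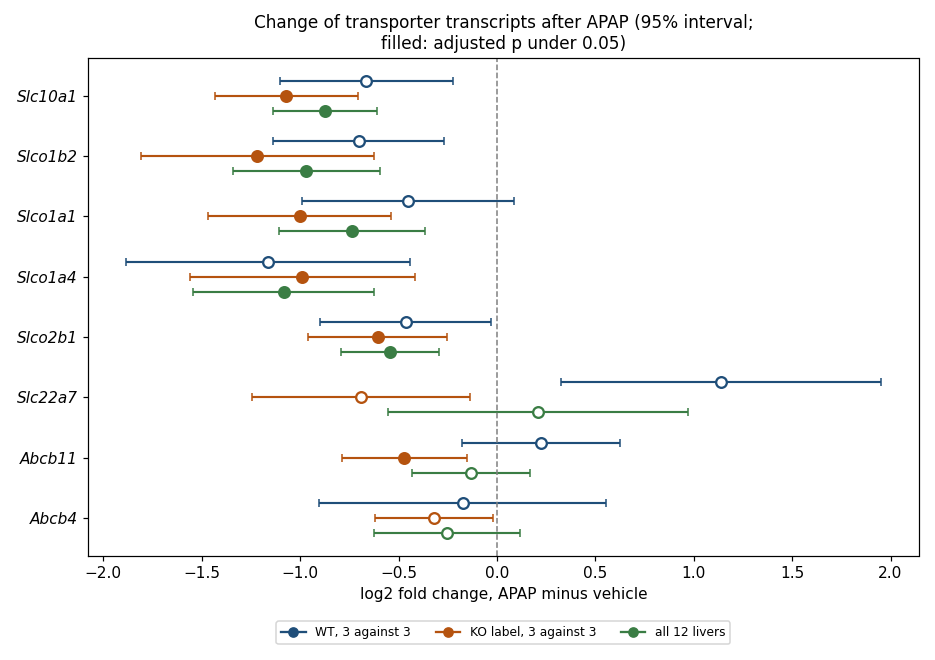
Log2 fold change (APAP minus vehicle) of the 8 members tested, with 95% intervals, in WT livers, under the Gα12KO label (3 against 3 each) and in all 12 livers; filled points passed an adjusted p of 0.05. The 5 uptake carriers at the top are filled for the pooled and Gα12KO fits and open in WT, and *Slc22a7* lies at 1.14 in WT and -0.69 under the Gα12KO label.

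The summed level of the 6 uptake genes was 1566 to 1893 CPM in WT vehicle and 1079 to 1199 CPM in WT APAP livers, and 1964 to 2355 CPM against 816 to 1235 CPM under the Gα12KO label. *Slc10a1* exceeded *Abcb11* by a TPM ratio of 10.4 to 11.9 in WT vehicle and 5.67 to 6.14 in WT APAP livers. The ratio was 7.61 to 9.60 in Gα12KO vehicle and 4.89 to 6.15 in Gα12KO APAP livers. In both genotypes the ratio was lower in every APAP liver than in every vehicle liver, and it was also lower in each Gα12KO vehicle liver than in each WT vehicle liver. These ranges describe 3 livers a group and were not tested.

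Between the genotype labels no member was called. In vehicle livers 0 of 8 passed edgeR's test, against 0.0262% of 15262 genes. Unadjusted, 3 members had a p under 0.05, as had 1154 of the 15262 genes. The labels did not overlap in 4 members (14.0% of all genes). *Slc22a7* was lower in WT than in Gα12KO vehicle livers, at 8.47 ± 2.36 against 21.1 ± 6.62 CPM (SD, n = 3 each), with a log2 difference of -1.32 ± 0.29 (adjusted p = 0.412). *Abcb11* showed 153 ± 14.0 against 238 ± 21.8 CPM, a log2 difference of -0.64 ± 0.14 (adjusted p = 0.410). DESeq2's Wald test called both genes, with adjusted p-values of 0.00397 and 0.00649, among 137 genes called in all. *Slco1b2* also did not overlap between the labels, with a log2 difference of -0.48 ± 0.19 (adjusted p = 0.634).

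In APAP livers 0 of 8 members were called by edgeR, against 0.0309% of 16174 genes. An unadjusted p under 0.05 was found for 536 of the 16174 genes and for 1 member. This was *Slco1a1*, at 202 ± 15.9 CPM in WT and 149 ± 20.5 CPM in Gα12KO livers, the only member without overlap (8.73% of all genes), with a log2 difference of 0.45 ± 0.18 and an adjusted p of 0.958. The labels' difference for *Abcb4* was 0.02, with a 95% interval of -0.38 to 0.42, and that for *Abcb11* was 0.07 (-0.33 to 0.48). For *Slco1a4* the interval ran from -0.92 to 0.62 around a difference of -0.15.

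The difference between the APAP changes of the 2 labels was tested as an interaction over all 12 livers, and 0 of 8 members passed, as did 0% of the 16509 genes tested. An unadjusted p under 0.05 was found for 848 of the 16509 genes and for 2 members, *Slc22a7* and *Abcb11*. DESeq2's Wald test also called neither of these 2. For *Slc22a7* the APAP change was higher in WT by 1.83 ± 0.47 on the log2 scale (adjusted p = 0.872, 95% interval 0.81 to 2.85). For *Abcb11* it was higher by 0.70 ± 0.20 (adjusted p = 0.872, 95% interval 0.25 to 1.14). *Slc10a1*, *Slco1b2* and *Slco1a1* had differences of 0.41, 0.51 and 0.55, and the 95% interval of each included 0. The genotype and treatment comparisons share livers. The WT and Gα12KO vehicle values of *Slc22a7* and *Abcb11* thus enter the treatment, the vehicle and the interaction values alike.

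**Figure D4:**
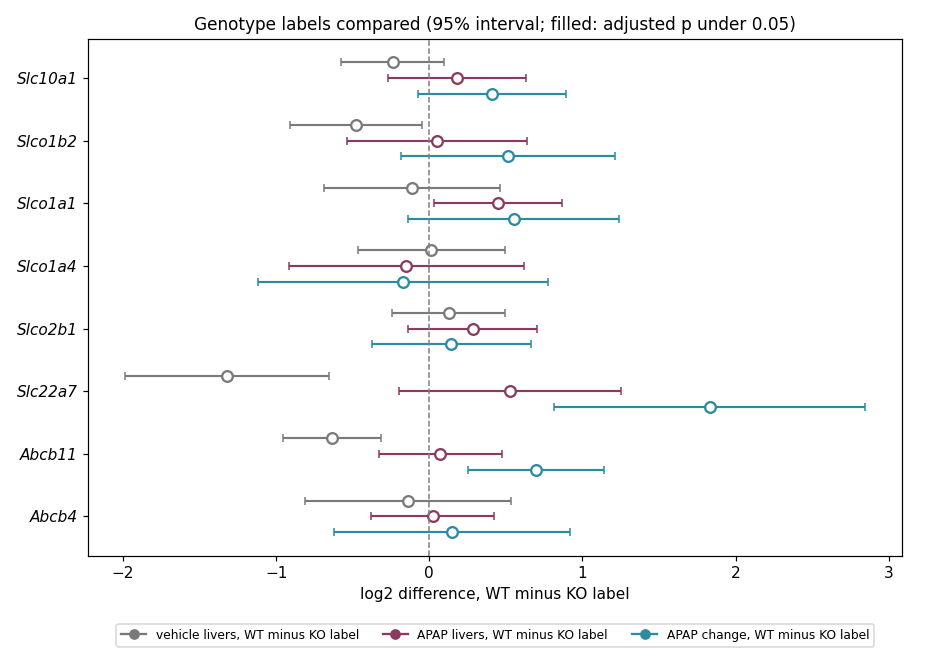
Log2 differences of the 8 members tested, with 95% intervals: WT minus Gα12KO in vehicle livers, WT minus Gα12KO in APAP livers, and the APAP change in WT minus that under the Gα12KO label. All points are open, since none passed an adjusted p of 0.05, and *Slc22a7* lies farthest from 0, at -1.32 in vehicle livers and 1.83 for the difference of changes.

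Other liver transporters, not all of them carriers of bile salts, and genes of bile acid synthesis and regulation were read from lists made by function. In the pooled test, 14.0% of the 16112 genes tested were called higher and 11.7% lower. Of 17 tested genes among 23 other sinusoidal and basolateral carriers, 4 were called higher and 6 lower in the pooled test, and their median log2 fold change was -0.19, against -0.64 for the 8 members. *Slc22a3*, an organic cation carrier, fell by 2.78 on the log2 scale (SE 0.40, adjusted p = 0.000369), from 3.69 to 5.87 CPM in vehicle to 0.159 to 1.12 CPM in APAP livers. *Slc10a5*, a relative of NTCP, fell by 1.35 (adjusted p = 0.000680), whereas its relative *Slc10a3* rose by 1.01 (adjusted p = 0.00109). *Slc22a18* fell by 0.49 (adjusted p = 0.00951). Of 10 tested genes among 11 other canalicular carriers, 0 rose and 3 fell. These were *Slc47a1*, which encodes the cation exporter MATE1 (-1.13, adjusted p = 2.80e-05), and the pair of genes whose products form the sterol exporter, *Abcg5* (-0.98, adjusted p = 0.000231) and *Abcg8* (-1.04, adjusted p = 0.00306). The copper pump gene *Atp7b* (-0.51, adjusted p = 0.0568) and the anion exchanger gene *Slc4a2* (-0.20, adjusted p = 0.318) did not pass.

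Genes of bile acid synthesis and conjugation were called lower for 6 of 14 and higher for 0, with a median log2 fold change of -0.44. *Akr1d1*, the steroid 5β-reductase, stood at 111 to 142 CPM in vehicle and 23.8 to 49.9 CPM in APAP livers (-1.75 ± 0.18, adjusted p = 3.48e-05). *Cyp8b1*, the sterol 12α-hydroxylase, changed by -1.11 ± 0.24 (adjusted p = 0.00532). *Slc27a2* (-0.49, adjusted p = 0.0146), *Cyp27a1* (-0.39, adjusted p = 0.0162) and *Amacr* (-0.45, adjusted p = 0.0223) fell less. Of 19 tested genes among 20 regulators of the carriers, 2 rose and 5 fell, with a median of -0.26. Over all genes in the pooled test, 14.0% were called higher and 11.7% lower. *Nr1i3*, which encodes the receptor CAR, fell by 1.18 (adjusted p = 0.000143), *Ppara* by 1.20 (adjusted p = 0.000383) and *Ahr* by 0.76 (adjusted p = 0.0106). *Nfe2l2*, which encodes NRF2, rose by 0.56 (adjusted p = 0.000950) and *Cebpb* by 0.90 (adjusted p = 0.00860).

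The lower uptake transcripts were accompanied by a lower pericentral hepatocyte list. All 12 of its genes were detected, 9 of 12 were called lower in the pooled test, and its summed level was 9619 to 11061 CPM in vehicle and 3808 to 6291 CPM in APAP livers. The periportal list, with 4 of 12 called lower, summed to 11618 to 21163 CPM and 11461 to 14381 CPM, and of the 11 general hepatocyte genes 0 were called by edgeR in the pooled test. The cholangiocyte list, with 10 of 10 genes detected, summed to 27.5 to 62.8 CPM in vehicle and 58.6 to 117 CPM in APAP livers. Of its 9 tested genes, 3 rose. *Slc10a2* is in this list and also among the other sinusoidal and basolateral carriers. Over all genes in the pooled test, 11.7% were called lower and 14.0% higher. The part of the shifts of these lists in the transporter values was not tested.

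**Figure D5:**
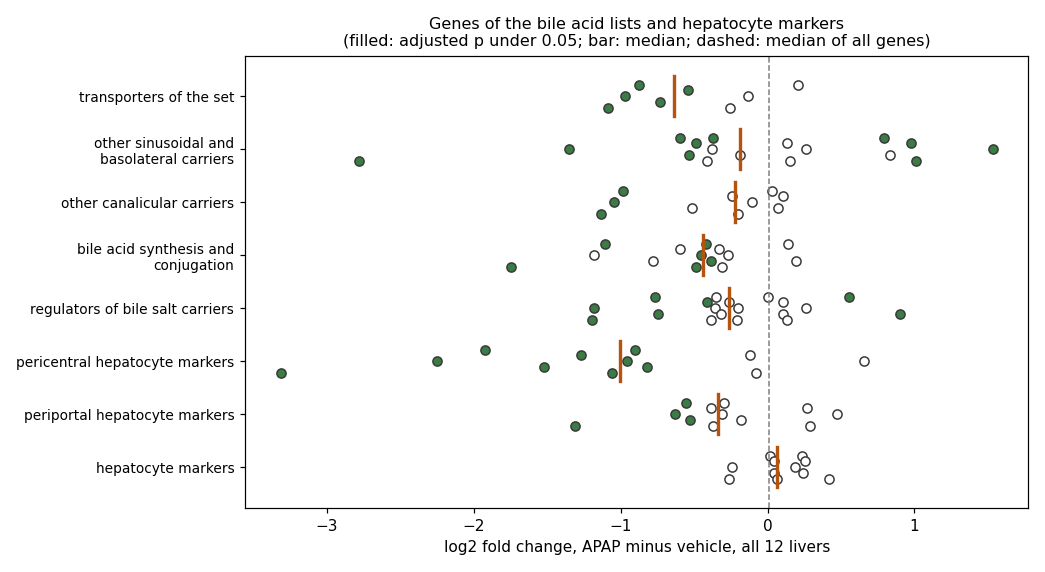
Pooled log2 fold change (APAP minus vehicle, all 12 livers) of each tested gene in the transporter set, the related lists and the hepatocyte marker lists; filled points passed an adjusted p of 0.05, vertical bars are list medians and the dashed line is the median of all genes. The median of the 8 transporters lies at -0.64, that of the pericentral list at -1.01 and that of the general hepatocyte list at 0.07.

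The Pearson correlation of log2 CPM over the 12 livers between *Slc10a1* and *Slco1b2* was 0.96, and it was 0.81 after each group's mean was subtracted. *Slc10a1* correlated with *Slco1a4* at 0.84 and with *Slco2b1* at 0.84, but within groups at 0.47 and 0.48. *Slco1a1* and *Slco1b2*, neighbours on chromosome 6, had 0.75 over all livers and 0.18 within groups. *Slc22a7* correlated with the other 5 uptake genes at -0.18 (*Slco2b1*) to 0.05 (*Slc10a1*). Of the 28 pairs of the 8 members, 14 had a correlation above 0.5 over the 12 livers and 5 had one within groups. These values share the treatment difference and the scaling of each library, and are given as a description.

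The genes most like 7 of the members were sought among 10912 genes by the same correlation over 12 livers. Members themselves were not taken as matches. *Copg2* (0.98) and *Apol7a* (0.98) were nearest to *Slc10a1*, *Plscr2* (0.96) and *Slc35a3* (0.96) to *Slco1b2*, and *Naprt* (0.95) and *Txlng* (0.94) to *Slco1a4*. *Smarca2* (0.97) and *Trp53i11* (0.96) were nearest to *Slco2b1*, and *Oxld1* (0.94) and *9030616G12Rik* (0.94) to *Slco1a1*. *Acsl1* (0.93) and *Mettl27* (0.93) were nearest to *Abcb4*, and *Ccdc80* (0.93) and *Col1a2* (0.86) to *Abcb11*. Within groups, the correlations of these genes with their members ran from 0.64 (*Col1a2*) to 0.95 (*Trp53i11*). The values over 12 livers share the treatment difference and are given as a description.

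Few reads could be shared between related members. Of all 100-base words in the longest coding transcript, 0.867% of those of *Slco1a1*, 1.10% of *Slco1a4* and 0.276% of *Abcb4* were also present in a transcript of another gene, and 0 in the other 6 members.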

How the data were processed

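RNA of 12 livers, 3 in each of 4 groups, was sequenced from stranded poly-A libraries (TruSeq Stranded mRNA kit), and each library was assigned to its group and number by its own label. The submitters' processing notes name FastQC 0.11.7, Trimmomatic 0.38, HISAT2 2.1.0, Bowtie2 2.3.4.1 and StringTie 2.1.3b and the build mm10 (GRCm38), without the role of each. The authors deposited whole-number read counts per gene without normalization, and these counts were tested. The TPM values deposited by the authors, scaled by transcript length and library, were used for levels between genes and for the limma alternative. The FPKM values deposited by the authors were not used. 0 per-sample columns were left unassigned.

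Counts were scaled by TMM and tested with edgeR 4.0.16 (glmQLFit, glmQLFTest, after filterByExpr) in R 4.3.3, on the 6 livers compared, or on all 12 for the pooled test, with the genotype label as covariate, and for the interaction. P-values were adjusted over all genes tested by the Benjamini-Hochberg method, with a threshold of 0.05, and 95% intervals come from the same fits. CPM values are after TMM scaling. The pipeline was tested on simulated data. Depth ranged from 49737950 to 69566079 counted reads, and floors of 3 counts cover counting error only. Replicates are separate livers, and 0 of 66 pairs of libraries were identical.

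The alternatives were edgeR with size factors from DESeq2 1.42.0, the Wald test of that package, leaving low counts in, requiring at least 10 counts in every library, the replicate block, one fit of all 12 livers, limma 3.58.1 on log2 TPM after quantile normalization with 1 or 0.1 added first, each library left out in turn, and both WT APAP liver 1 and WT vehicle liver 2 left out. The members and lists were chosen with earlier results of these data known. All 9 members were named, with at most 5 genes of each related list by the smallest unadjusted p of the pooled test, and the 2 genes most correlated with each member over 12 livers among genes whose mean log2 CPM was 1 or more. Some genes that this rule names are not reported here. Promoter sequences and gene positions came from RefSeq tables of GRCm38.p6, and transcript words and exon overlaps from GENCODE annotation of the same build.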

Additional observations from a re-analysis of the deposited data

How the results depend on the processing

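The pooled count of 5 members called lower, among 4142 genes called in all, was unchanged under 7 settings. It ranged from 5 to 6 when 1 library was left out (3185 to 4750 genes in all). Without both WT APAP liver 1 and WT vehicle liver 2 it was 6 (5569 genes in all). In WT the count of 0, with 322 genes called in all, became 4 with DESeq2's Wald test (1413 genes). It was 2 with all 12 livers in one fit (1523 genes), and 0 to 1 over the 6 fits that left out a library (41 to 442 genes). Under the Gα12KO label the count of 6, with 3538 genes called in all, ranged from 3 to 5 over such fits (1995 to 3368 genes). It was 4 with limma on log2(TPM + 0.1) (2961 genes), and 5 to 7 in the other settings (2249 to 4325 genes). Between labels in vehicle livers the count was 0 (4 genes called in all), and 2 with DESeq2's Wald test (137 genes). The count stayed 0 in APAP livers and for the interaction in every fit run. The cause of these shifts was not tested. Fits that left out a library also held fewer livers.

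Numbers shared by label did not pair the livers: of 12 same-number pairs, 0 correlated above 0.1 in their deviations from the group means (range -0.42 to 0.03). In 1 of these 12 pairs the first library correlated better with its own number than with the other numbers of the second group. With the replicate block, 0 members were called in WT (62 genes in all), 5 under the Gα12KO label (2761 genes) and 5 pooled (3532 genes). In the other 3 comparisons 0 members were called.

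No called change reversed. Among uncalled values, limma on log2(TPM + 1) and log2(TPM + 0.1) reversed the label difference in APAP livers for *Slc10a1* (-0.051 and -0.051), *Slco1b2* (-0.10 and -0.10), *Abcb11* (-0.023 and -0.023) and *Abcb4* (-0.062 and -0.063), and in vehicle livers for *Slco1a4* (-0.0099 and -0.0098). Without both libraries named above, pooled *Slc22a7* was -0.010 and the *Abcb4* interaction -0.18. With 1 library left out, the sign changed within these ranges: *Abcb4* -0.46 to 0.12 for the WT treatment, -0.026 to 0.12 between labels after APAP, -0.45 to 0.14 after vehicle and -0.13 to 0.46 for the interaction. *Slco1a4* ran from -0.57 to 0.12 after APAP, -0.17 to 0.15 after vehicle and -0.58 to 0.095 for the interaction. *Slco1b2* ran from -0.16 to 0.33 and *Abcb11* from -0.018 to 0.14 between labels after APAP, *Slco1a1* from -0.29 to 0.062 after vehicle, and pooled *Slc22a7* from -0.0025 to 0.41. With 3 livers a group, the *Slc22a7* label difference in vehicle livers has a 95% interval of -1.99 to -0.65, and *Slc51b* is too low to compare.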

Other observations

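The 10 called genes among the other sinusoidal and basolateral carriers did not all move one way. 3 of the 4 called higher in the pooled test fall outside the rule for named genes and were chosen after their values were seen. *Slc10a2*, the sodium-dependent bile acid carrier of ileum and bile duct, ranged from 5.61 to 6.53 CPM in Gα12KO vehicle and 17.6 to 35.0 CPM in Gα12KO APAP livers, and its pooled log2 fold change was 1.53 ± 0.47 (edgeR, adjusted p = 0.0301). In WT vehicle livers it ran from 3.05 to 33.5 CPM, and the WT change of 1.06 ± 0.78 did not pass (adjusted p = 0.514). *Slc10a2* is also a gene of the cholangiocyte list. The basolateral efflux pump genes *Abcc4* (0.79 ± 0.27, adjusted p = 0.0478) and *Abcc1* (0.97 ± 0.31, adjusted p = 0.0332) also rose, from levels of at most 2.67 and 1.58 CPM in vehicle livers. *Abcc3*, a more abundant basolateral efflux pump at 230 to 392 CPM, fell by 0.37 ± 0.13 (adjusted p = 0.0472).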
